A study of Homo sapiens with 12 samples.

Results

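Open chromatin was compared around 8 genes of monocytes (CD14, TLR2, TLR4, LYZ, ITGAM, ITGAX, CD36 and CD163) in KO-52 cells that carried either isoform of CEBPA. The members were all ATAC-seq peaks within the GENCODE body of each gene or within 50 kb on either side. They made up 187 of 355394 common regions: 19 in the CD14 window, 24 for TLR2, 16 for TLR4, 16 for LYZ, 42 for ITGAM, 30 for ITGAX, 50 for CD36 and 9 for CD163. ITGAM and ITGAX are neighbours on chromosome 16, and 19 regions lay in both of their windows. ATAC-seq uses a transposase to tag accessible DNA, and KO-52 is an acute myeloid leukemia (AML) cell line with biallelic CEBPA mutations. The cells were transduced with p42, the full-length isoform, with p30, the N-terminally truncated isoform, or with an empty vector (EV), so that the endogenous mutant CEBPA was present in all of them. Each line was kept in DMSO or treated with tunicamycin at 2 µg/mL for 8 h, a blocker of N-glycosylation that causes endoplasmic reticulum stress. The 2 replicates of each condition made 12 libraries, which the authors pooled into 6 peak lists. By the study's methods, transduced KO-52 cells carried the isoforms as ERT2 fusions, which enter the nucleus after 4-hydroxytamoxifen, while unfused forms were electroporated. The labels name neither the construct nor the drug for these libraries.

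Monocytes sense bacteria through pattern-recognition receptors. CD14 hands lipopolysaccharide to TLR4, TLR2 recognises bacterial lipoproteins, and both receptors signal through MYD88 to NF-κB and AP-1. The leukocyte integrins CD11b (ITGAM) and CD11c (ITGAX) pair with CD18 (ITGB2) in adhesion and in the uptake of complement-coated particles, CD36 and CD163 are scavenger receptors for lipids and for haemoglobin bound to haptoglobin, and LYZ encodes the lysozyme that cleaves bacterial cell walls. C/EBPα acts with PU.1 and RUNX1 in the myeloid lineage, and binds DNA as a dimer at a palindrome or, with other bZIP proteins such as AP-1 or ATF members, at composite sites.

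Each list is 1 pooled measurement, so none of the differences below has a replicate spread and none was tested. The lists held 187704 (EV, DMSO) to 254239 peaks (p42, DMSO), and their estimated depth ran from 22250000 tags in EV cells to 29980000 tags in p42 cells, both in DMSO. The absence of a peak means that a region was not detectable at this depth. Peaks were compared between lists by their percentile, the rank of their −log10 q within their own list, where 100 is the strongest. The number of tags at the summit of each peak, recovered from the deposited values, shows how few counts a low percentile rests on. In the p42 list in DMSO a summit of 5 tags in the CD36 window lay at percentile 8.67, one of 7 tags at TLR4 at 33.9 and one of 10 tags at TLR4 at 57.3. A summit of 10 tags in the CD36 window lay at 56.3 in the p30 list in DMSO, which is shallower. Percentiles were thus not scaled to depth, and equal depth-scaled signal can rank higher in a deeper list. In the myeloid check, all 6 genes taken as markers (SPI1, CEBPA, CD33, MPO, CSF3R and CSF2RA) had a promoter peak in every list. Of 14 marker genes of T, B, NK, erythroid and megakaryocytic cells, 8 to 10 had a promoter peak in a given list against 79.2 to 82.2% of 20007 protein-coding genes. HBB, KLF1 and MS4A1 had none in any list, while CD8A, named after its values were seen, had one in every list.

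Sequences centred on the summits of 9 regions are shown first, so that the values below can be read beside the DNA they belong to. The first 4 come from regions that ranked higher in both p42 lists than in all 4 other lists and hold a CEBP sequence within 100 bp of the summit. Capitals mark the match on either strand to CEBP (TTGCNCAA) or CEBP:AP1 (TGTTGCAA), and CEBP:ATF (TGATGCAA) was the other form searched. All coordinates are hg38, and the sequences read 5′ to 3′.
CD14, 30576 bp from the start (chr5:140603024-140603224, plus strand): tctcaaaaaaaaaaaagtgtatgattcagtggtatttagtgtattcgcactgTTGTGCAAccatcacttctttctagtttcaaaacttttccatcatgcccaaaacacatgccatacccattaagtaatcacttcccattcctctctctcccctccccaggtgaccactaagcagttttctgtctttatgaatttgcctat
TLR4, 22182 bp before the start (chr9:117681893-117682093, plus strand): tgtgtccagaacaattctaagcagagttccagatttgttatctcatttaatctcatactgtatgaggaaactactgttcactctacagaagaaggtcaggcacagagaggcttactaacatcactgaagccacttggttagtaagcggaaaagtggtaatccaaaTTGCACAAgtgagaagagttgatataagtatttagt
CD36, 265028 bp from the start (chr7:80634503-80634703, plus strand): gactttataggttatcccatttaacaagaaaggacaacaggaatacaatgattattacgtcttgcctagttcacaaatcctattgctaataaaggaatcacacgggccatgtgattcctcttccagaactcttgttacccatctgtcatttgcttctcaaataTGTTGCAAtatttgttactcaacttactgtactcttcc
CD36, 273461 bp from the start (chr7:80642936-80643136, plus strand): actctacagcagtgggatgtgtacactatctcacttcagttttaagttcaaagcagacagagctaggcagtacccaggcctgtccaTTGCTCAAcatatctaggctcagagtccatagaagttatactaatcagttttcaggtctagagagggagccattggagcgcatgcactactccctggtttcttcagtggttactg

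The CD14 stretch above had peaks in both p42 lists and in no other list. The second set holds, for the genes whose largest excess of p42 over p30 in DMSO is not among those 4 stretches, the region with that excess. ITGAM and ITGAX share theirs. None of these 5 stretches has a match to the 6 motifs searched, which were the 3 above and AP-1 (TGACTCA), PU.1 (GAGGAAGT) and RUNX (AACCACA). The stretch 40918 bp from the TLR4 start is 74.1% G and C, against a median of 45.8% over all common regions.
TLR2, 38710 bp before the start (chr4:153645260-153645460, plus strand): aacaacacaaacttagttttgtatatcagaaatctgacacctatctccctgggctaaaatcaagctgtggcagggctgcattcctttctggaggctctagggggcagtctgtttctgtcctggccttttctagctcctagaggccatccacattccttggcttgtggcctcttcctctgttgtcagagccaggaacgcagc
TLR4, 40918 bp from the start (chr9:117744993-117745193, plus strand): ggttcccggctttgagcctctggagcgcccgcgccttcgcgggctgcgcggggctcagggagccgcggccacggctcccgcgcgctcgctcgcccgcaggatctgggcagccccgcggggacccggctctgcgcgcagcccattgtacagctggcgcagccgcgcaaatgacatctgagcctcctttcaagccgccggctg
LYZ, 443 bp from the start (chr12:69348724-69348924, plus strand): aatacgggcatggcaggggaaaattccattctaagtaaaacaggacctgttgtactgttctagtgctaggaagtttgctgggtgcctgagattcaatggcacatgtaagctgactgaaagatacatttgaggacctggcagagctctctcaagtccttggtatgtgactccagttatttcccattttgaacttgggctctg
ITGAM and ITGAX, 105267 bp from the ITGAM start (chr16:31365134-31365334, plus strand): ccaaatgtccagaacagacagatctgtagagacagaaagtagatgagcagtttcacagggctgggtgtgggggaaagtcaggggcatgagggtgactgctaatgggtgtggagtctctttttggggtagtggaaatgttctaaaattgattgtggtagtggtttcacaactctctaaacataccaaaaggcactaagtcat
CD163, 39035 bp before the start (chr12:7542828-7543028, plus strand): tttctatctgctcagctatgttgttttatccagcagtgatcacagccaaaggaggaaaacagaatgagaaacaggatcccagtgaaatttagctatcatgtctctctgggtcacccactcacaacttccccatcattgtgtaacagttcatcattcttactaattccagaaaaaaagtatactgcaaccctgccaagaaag

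The promoters of 7 of the 8 genes were open in every list, and CD36 was the exception. Regions counted as promoters where they came within 1000 bp of a GENCODE start site of the gene. The ITGAM promoter, on chromosome 16 from 31259476 to 31260413, was the strongest, at percentiles 99.5, 98.2 and 99.0 in p42, p30 and EV cells in DMSO and 97.3, 98.9 and 98.8 after tunicamycin, with 39 to 49 summit tags. The 6 values span 2.24 points, the narrowest of the 8 genes. LYZ came next. Its promoter on chromosome 12 from 69348214 to 69348622 lay at 94.3, 93.8 and 91.9 in DMSO and 95.5, 92.2 and 86.0 after tunicamycin. The p42 percentile was the highest under both treatments, but per 10000000 tags of depth the p42 summit was the lowest of the 3 in DMSO, at 10.01 against 10.18 in p30 and 10.34 in EV cells.

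The promoters of CD14, TLR2 and TLR4 were of middling strength and spanned 10.8, 11.6 and 11.7 points over the 6 lists. CD14 lay at 73.9, 82.5 and 84.6 in p42, p30 and EV cells in DMSO, and at 77.8, 75.8 and 76.4 after tunicamycin. The p42 list was thus the lowest of the 3 in DMSO and the highest after tunicamycin, where the depth-scaled tags of the p42 and p30 lists were nearly equal at 8.65 and 8.67. TLR2 lay at 82.9, 72.8 and 83.8, and at 77.5, 84.4 and 78.5 after tunicamycin, with p30 the lowest in DMSO and the highest after treatment. TLR4 lay at 86.7, 76.2 and 85.3, and at 81.8, 75.0 and 85.0 after tunicamycin, so that p30 was the lowest under both treatments. ITGAX lay at 86.5, 85.6 and 75.4, and at 82.3, 91.7 and 77.9 after tunicamycin, and here EV was the lowest under both.

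The CD163 promoter was the only one that spanned 20 points or more. On chromosome 12 from 7503766 to 7503980, it lay at percentiles 81.7, 86.1 and 73.3 in p42, p30 and EV cells in DMSO, with 18, 20 and 14 summit tags. After tunicamycin it lay at 72.9, 33.2 and 49.9, with 14, 7 and 9 tags. Every line was lower after tunicamycin, p42 by the least and p30 by the most. The exact Poisson intervals, for counting error only, were 12.2 to 30.9 tags for p30 in DMSO and 2.81 to 14.4 after tunicamycin, and so overlapped slightly. Over the 6 lists, the 3 protein-coding genes whose strongest promoter region had the most similar percentiles were VANGL2, SORT1 and PCDHB3, at Euclidean distances of 20.6 to 20.8 percentile points.

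CD36 had a promoter peak in only 1 list, EV in DMSO, with 5 summit tags at percentile 9.43. This peak, on chromosome 7 from 80646258 to 80646317, overlapped 2 of the 6 RefSeq promoter windows of CD36 and the other 4 windows held no region. CD36 nevertheless had the most regions of the 8 windows. Its body is 309703 bp long, and its strongest region outside promoters, 311166 bp from the start, lay at 91.8, 84.6 and 88.0 in DMSO and at 97.6, 92.5 and 80.5 after tunicamycin.

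**Figure D1:**
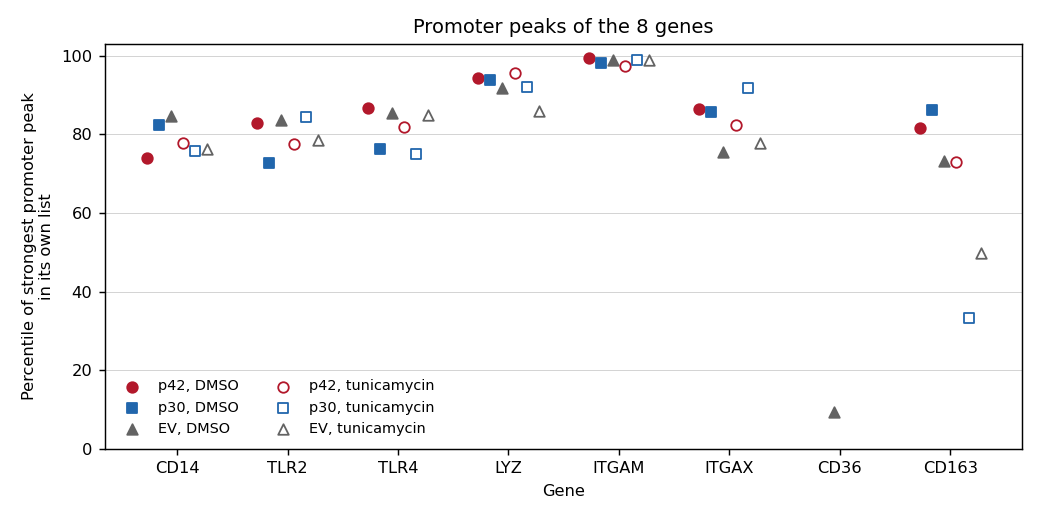
Percentile of the strongest promoter peak of each gene within its own list (vertical axis, 0 to 100), for p42, p30 and EV cells in DMSO (filled) and after tunicamycin (open); each point is 1 pooled list and there are no error bars. The ITGAM points lie between 97.3 and 99.5, the CD163 points drop to 33.2 and 49.9 for p30 and EV cells after tunicamycin, and CD36 has a single point at 9.43.

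RefSeq promoter sequences (build GRCh38.p14) were at hand for 6 of the 8 genes, with LYZ and ITGAX not among them. The 250 bases before the start were searched for the same 6 motifs on both strands. None of the 6 genes has a CEBP form there, against 2.27% of 35116 RefSeq promoters with CEBP, 0.772% with CEBP:ATF and 0.547% with CEBP:AP1. AP-1 was found at CD14 and at 1 CD36 start (4.2% of all promoters), PU.1 at TLR4 (2.17%) and RUNX at 1 CD36 start (3.65%). The promoters of the lipopolysaccharide co-receptor and of its signalling receptor are shown because both were open in all 6 lists and hold such a match, CD14 an AP-1 match and TLR4 2 PU.1 matches, again in capitals.
CD14 promoter (chr5:140633176-140633425, minus strand): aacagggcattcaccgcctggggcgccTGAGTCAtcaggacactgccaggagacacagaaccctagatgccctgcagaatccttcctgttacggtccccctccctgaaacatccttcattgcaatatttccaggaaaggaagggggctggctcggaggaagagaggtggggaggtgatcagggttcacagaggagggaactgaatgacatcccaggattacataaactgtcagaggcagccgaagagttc
TLR4 promoter (chr9:117704153-117704402, plus strand): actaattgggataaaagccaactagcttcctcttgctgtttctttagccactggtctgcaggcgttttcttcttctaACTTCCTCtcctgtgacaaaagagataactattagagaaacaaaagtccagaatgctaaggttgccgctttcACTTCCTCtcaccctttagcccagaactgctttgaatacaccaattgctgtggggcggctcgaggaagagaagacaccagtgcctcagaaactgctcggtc

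Around these promoters, more regions had a peak in p42 cells than in the other lines. Of the 187 regions, p42 cells in DMSO had a peak at 140 (74.9%, with 68.2 to 80.5 as 95% Wilson limits), p30 cells at 116 (62.0%, 54.9 to 68.7) and EV cells at 111 (59.4%, 52.2 to 66.1). After tunicamycin the numbers were 119 (63.6%), 100 (53.5%) and 104 (55.6%). Such limits reflect counting error only. The same order of lines in DMSO held over all common regions, of which 69.3, 56.1 and 50.4% had a peak. After tunicamycin the shares over all common regions were 56.8, 49.4 and 52.0%. Over regions within 50 kb of a protein-coding gene the shares were 71.1, 58.1 and 52.8% in DMSO and 59.0, 51.6 and 54.2% after tunicamycin. The shares of the 8 windows were above both backgrounds in every list. However, the background near protein-coding genes lay within the Wilson limits of the windows in each list. In all, 71 regions (38.0%) had a peak in all 6 lists, against 32.2% of all common regions, and 58 (31.0%, against 34.2%) had one in a single list. Of these, 27 (14.4% of the 187, against 13.3%) were in p42 cells in DMSO, the deepest list.

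**Figure D2:**
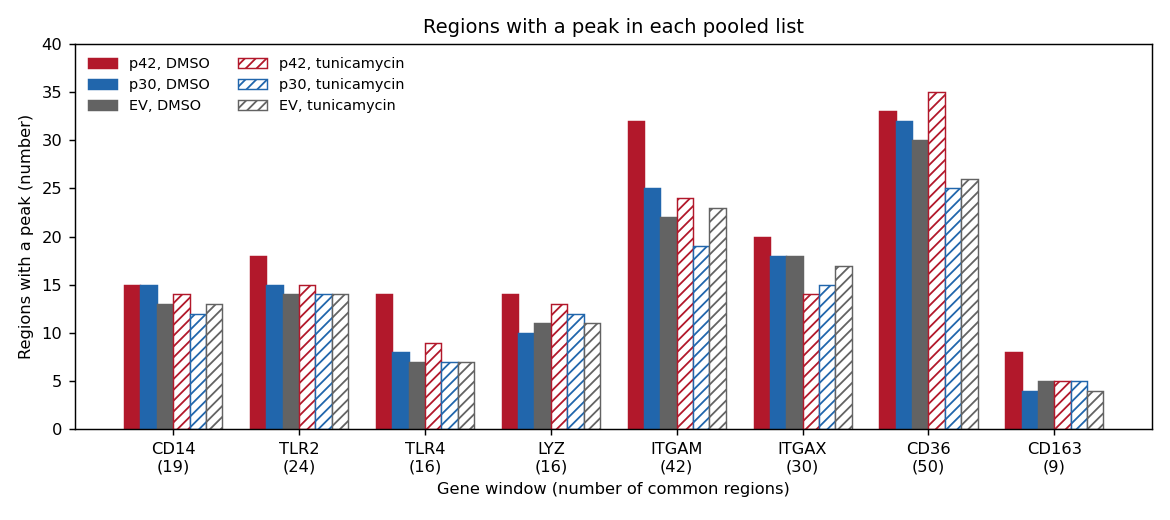
Number of regions with a peak in each gene window (bars start at 0) for the 6 pooled lists, with the number of common regions in each window in brackets; solid bars are DMSO and hatched bars tunicamycin. The TLR4 bars show 14 regions for p42 cells in DMSO against 7 to 9 in the other 5 lists.

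The first comparison asks where p42 and p30 cells differed in DMSO. A peak in p42 and not in p30 cells was found at 48 of the 187 regions (25.7%, 19.9 to 32.4), and the reverse at 24 (12.8%, 8.78 to 18.4). The background over all common regions was 25 and 11.8%, and that over regions within 50 kb of a protein-coding gene 24.2 and 11.2%, so that the 8 windows as a set were close to the rest of the genome. The excess of p42 moved with the size of the lists. When the same number of peaks was taken from each list, 12.8% of the regions had a peak in p42 cells only and 13.9% in p30 cells only, which turned the direction on 24 against 26 regions. The shares over all common regions were then 13.4 and 12.8%, whose order did not turn. By gene, TLR4 had 6 regions in p42 cells only and 0 in p30 cells only, CD163 4 and 0, LYZ 4 and 0, ITGAM 12 and 5, TLR2 7 and 4, ITGAX 7 and 5, CD36 10 and 9, and CD14 4 and 4. With 16 regions in the TLR4 window, the Wilson interval of its 37.5% is 18.5 to 61.4% and holds the background, as does that of the 0 regions in p30 cells only, with an upper limit of 19.4%. With the same number of peaks from each list, TLR4 had 5 regions in p42 cells only and 2 in p30 cells only, while CD163 had 1 and 0. The p42-only regions were weak, with a median of 8 summit tags and a median percentile of 25.6 in the p42 list, and the p30-only regions were as weak, with 7 tags and 25.7 in the p30 list. Over all common regions the p42-only regions had a median of 7 tags and lay at 21.0. In the windows, regions shared by both lines had a median of 17 tags and lay at 73.9 in the p42 list.

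At the 92 regions with a peak in both lines, the percentile was higher in p42 cells at 68.5%, with a median difference of 3.76 points (order-statistic interval 1.97 to 8.72). This interval, and each one given below for a median difference, covers the spread over regions within 1 pair of pooled lists. It is no test of a line or a treatment, whether or not it includes 0. Over all common regions it was higher in p42 cells at 61.8%, with a median of 3.16 points. The p42 list was deeper than the p30 list, which a percentile does not correct for. TLR4 had the largest median difference of the 8 windows, 23.7 points over 8 regions, and 6 of the 8 were higher in p42 cells, but its interval of −3.91 to 48.5 includes 0. CD163 followed with 12.0 points over 4 regions, too few for an interval, and LYZ with 5.06 over 10 (−2.17 to 21.4). The smallest was that of TLR2, 1.13 points over 11 regions.

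**Figure D3:**
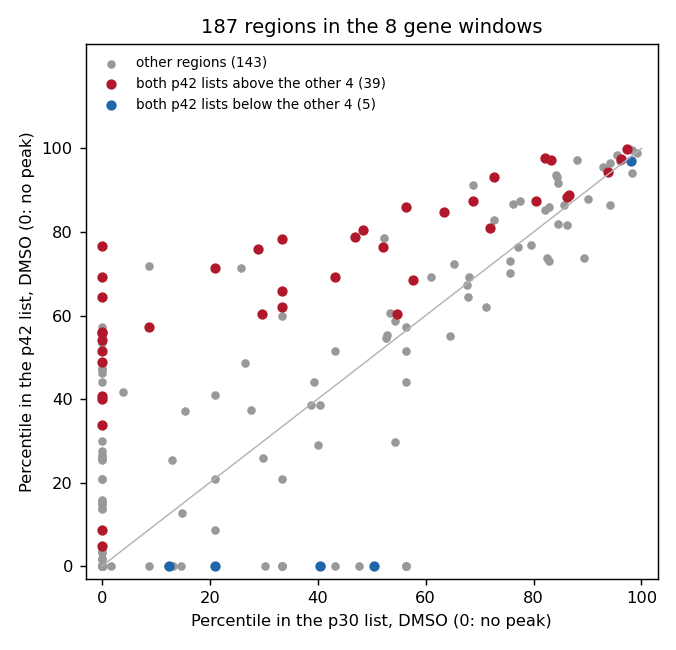
Percentile of each of the 187 regions in the p30 list (horizontal axis) and in the p42 list (vertical axis), both in DMSO, with 0 where there was no peak and the line of equal percentile in grey. Of the coloured points, 39 regions ranked higher in both p42 lists than in all 4 other lists (red) and 5 ranked lower (blue).

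The second question is whether the p42 difference was kept after tunicamycin. A region was called p42-high when its percentile, with 0 for no peak, was higher in both p42 lists than in all 4 lists of p30 and EV cells, and p42-low when it was lower in both. In the 8 windows 39 regions (20.9%, 15.6 to 27.2) were p42-high against 17.0% of all common regions, and 5 (2.67%) were p42-low against 4.48%. On the scale of summit tags per 10000000 tags of depth, 29 regions (15.5%) were p42-high against 11.3%. The same rule on percentiles gave 9 p30-high and 11 p30-low regions (4.81 and 5.88%, background 3.51 and 3.59%), and 5 EV-high and 11 EV-low regions (2.67 and 5.88%, background 3.19 and 4.61%). Among the 71 regions open in all 6 lists, 21 (29.6%, background 24.4%) were p42-high and 1 (1.41%, background 9.44%) was p42-low. Thus p42-high was the most frequent of these patterns in the windows as it was in the genome. By window there were 6 p42-high of 16 regions at TLR4, 5 of 16 at LYZ, 7 of 24 at TLR2, 11 of 50 at CD36, 2 of 9 at CD163, 3 of 19 at CD14, 4 of 42 at ITGAM and 3 of 30 at ITGAX.

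Most p42-high regions lay away from promoters, as did most of the 187 regions. Of the 39, 26 lay outside the member genes and outside promoters, 9 in the body of a member, 3 at promoters of other genes and 1 at a member's promoter. That one was LYZ, where the lowest p42 percentile stood 0.561 points above the highest other value and where, as given above, the depth-scaled tags in DMSO had the opposite order. The 187 regions fall into the same classes as 101, 55, 18 and 13. In 10 regions (5.35%, background 4.58%) both p42 lists had a peak and the other 4 had none. No region had peaks in both p30 lists alone (background 0.618%) or in both EV lists alone (0.558%), and 2 (1.07%, background 0.802%) had peaks in both p30 and both EV lists and in neither p42 list.

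TLR4 showed the pattern on both sides of its start. At 22182 bp before its start, on chromosome 9 from 117681757 to 117682382, the region with the CEBP match shown above lay at 78.4, 33.4 and 51.1 in p42, p30 and EV cells in DMSO. After tunicamycin it lay at 69.0, 33.2 and 19.98. The summit tags were 17, 7 and 9 in DMSO and 13, 7 and 6 after tunicamycin. Both p42 values stood at least 17.9 points above the other 4.

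Just beyond the 3′ end of TLR4, from 117725347 to 117726032, the gap was wider. The region lay at 76.0, 28.9 and 12.4 in DMSO and at 72.3 and 46.5 in p42 and p30 cells after tunicamycin, with no peak in EV cells. Per 10000000 tags of estimated depth the summit held 7.34 tags in p42 cells (exact Poisson interval 4.60 to 11.1) against 2.64 in p30 cells (1.06 to 5.44) in DMSO, intervals that still overlap. Another region, in a TLR4 exon from 117718159 to 117718421, was open in all 6 lists with 26, 13 and 14 tags in DMSO and 23, 15 and 15 after tunicamycin. It lay at 87.5, 68.8 and 73.3 and then at 84.9, 73.8 and 72.5. The G and C rich region at 40918 bp lay at 57.3, 8.80 and 9.43 in DMSO and at 34.05 in p42 cells and 29.1 in EV cells after tunicamycin, with at most 10 tags. No TLR4 region was p42-low. The largest excess of p30 over p42 at TLR4, from 117723901 to 117724492, was small, with 29.8 in p30 and 25.9 in p42 cells. The regions downstream of TLR4 lie in introns of an overlapping protein-coding gene model, ENSG00000285082, whose promoter region is that of TLR4.

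**Figure D4:**
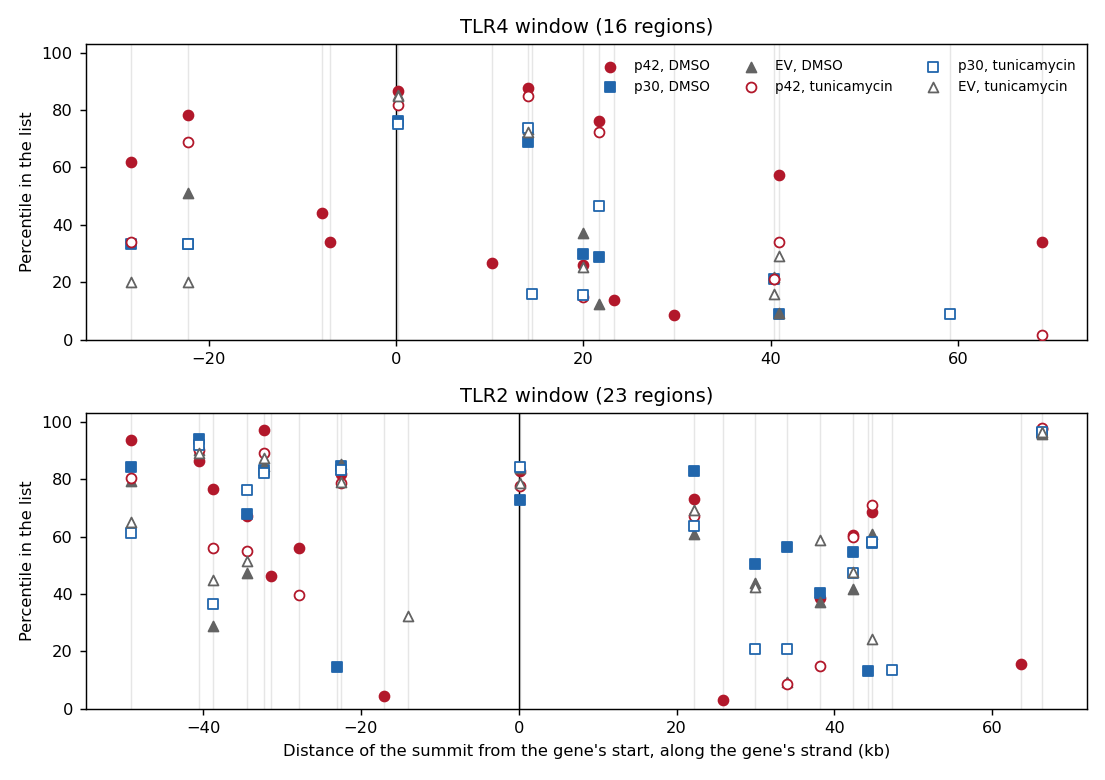
Percentile of the peaks at all 16 regions of the TLR4 window (top) and at 23 of the 24 regions of the TLR2 window (bottom) against the distance of the region's summit from the gene's start in kb, with 1 symbol for each pooled list. At TLR4 both p42 symbols (red circles) stand above the others at 6 regions, from 28278 bp before the start to 68962 bp beyond it, while at the promoter the symbols lie between 75.0 and 86.7.

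TLR2 had 7 p42-high and 1 p42-low region. The strongest p42-high region upstream, from 153651558 to 153651972 on chromosome 4, lay at 97.2, 83.3 and 84.5 in DMSO and 89.0, 82.1 and 87.5 after tunicamycin, with 40, 24 and 23 tags in DMSO. Beyond the gene, 3 p42-high regions lay in introns of the neighbouring RNF175. The strongest, from 153750138 to 153750514, lay at 97.4, 96.2 and 95.6 in DMSO and 97.9, 96.3 and 96.5 after tunicamycin, but with 11.3, 11.7 and 12.6 depth-scaled tags in DMSO it was the lowest in p42 cells on that scale. One RNF175 region went the other way in DMSO, from 153717930 to 153718106, with no peak in p42 cells and 10 tags at 56.3 in p30 cells.

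CD14 had as many regions in p42 as in p30 cells in DMSO. It had 15 regions with a peak in p42 cells and 15 in p30 cells in DMSO, 11 of them shared. The region 37959 bp from its start, from 140595428 to 140596015 on chromosome 5, had 35, 17 and 19 tags in DMSO and 25, 13 and 21 after tunicamycin, and lay at 93.2, 72.7 and 78.2 and then at 84.1, 59.4 and 80.2. The region with the CEBP match, from 140602990 to 140603186, had peaks in the p42 lists only, at 48.9 and 28.6 with 9 and 7 tags. The strongest region outside promoters of other genes, from 140611753 to 140612438, lay at 95.5, 92.8 and 86.7 in DMSO and at 83.2, 89.4 and 85.8 after tunicamycin, so that p42 was the highest in DMSO and the lowest after it. In the other direction, a region at the WDR55 promoter, from 140665403 to 140665501, had no peak in p42 cells in DMSO and lay between 28.4 and 47.4 in the other 5 lists.

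Of the ITGAM regions 9.52% (3.77 to 22.1) were p42-high and of the ITGAX regions 10.0% (3.46 to 25.6), against 17.0% of all common regions. Both intervals hold that background. The 2 windows shared 2 of their p42-high regions. One, from 31365162 to 31365437 on chromosome 16 in an ITGAX intron, had peaks in the p42 lists only at 56.1 and 28.0 and with 13 and 9 tags. The other, 2557 bp before the ITGAX start, lay at 87.4, 80.4 and 69.2 in DMSO and 83.1, 67.3 and 46.6 after tunicamycin, and holds a PU.1 match. A region between the 2 genes, from 31333734 to 31334314, ranked at 98.8, 99.2 and 97.8 in DMSO, close to the ITGAM promoter, and at 85.0, 93.1 and 91.7 after tunicamycin. It was lower after tunicamycin in all 3 lines. The largest excess of p30 over p42 in DMSO was found at regions with no p42 peak, at 30.3 in p30 cells in the ITGAM window (31215877 to 31215953, 10 tags) and at 47.7 in the ITGAX window (31402841 to 31402937, 16 tags).

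Among the scavenger receptors, CD36 held 11 p42-high regions, all of them in introns or beyond the 3′ end. The one with the CEBP match shown above, from 80642887 to 80643258 on chromosome 7, lay at 71.3 and 21.0 in p42 and p30 cells in DMSO with no peak in EV cells, and at 72.9, 42.9 and 19.98 after tunicamycin. The one with the CEBP:AP1 match, from 80634559 to 80634764, lay at 69.3 and 62.0 in p42 and EV cells in DMSO with no peak in p30 cells, and at 68.2, 29.7 and 8.06 after tunicamycin. Per 10000000 tags it held 4.34 in p42 and 4.94 in EV cells in DMSO, which reverses that order. The strongest CD36 region with peaks in the p42 lists only, from 80686651 to 80686865, lay at 51.5 and 44.1 with 9 and 8 tags. CD36 also held regions of the opposite kind, such as one 35171 bp before the start with 10 tags at 56.3 in p30 cells and no peak in p42 cells in DMSO. At CD163 the strongest region lay in an intron of the neighbouring CD163L1, from 7460506 to 7461052 on chromosome 12. It had 31, 18 and 17 tags in DMSO, at 97.8, 82.1 and 81.7, and 22, 20 and 21 tags after tunicamycin, at 89.9, 87.0 and 88.1. Per 10000000 tags it held 10.3 (7.03 to 14.7) in p42 and 6.78 (4.02 to 10.7) in p30 cells in DMSO, and 8.65 and 8.67 after tunicamycin.

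LYZ had p42-high regions on both sides of its promoter, but the one downstream, 9258 bp from the start, had a narrow margin. Its lowest p42 percentile stood 0.488 points above the highest other value. Its depth-scaled tags in DMSO were 11.67 in p42 and 11.68 in p30 cells. The region 18240 bp before the start, from 69329840 to 69330389 on chromosome 12, lay at 84.8, 63.3 and 64.8 in DMSO and at 76.2, 48.8 and 62.0 after tunicamycin, with 27, 15 and 15 tags in DMSO. The region with the largest excess over p30 lay inside the gene, 443 bp from the start, at 53.3 in p42 cells with 10 tags and with no peak in p30 cells in DMSO, but it had no peak in p42 cells after tunicamycin and a peak at 26.5 in p30 cells. A region 9893 bp before the start had peaks in the p42 lists only, at 40.7 and 30.8 with 9 tags in each. In the other direction, the region 17252 bp before the start lay at 55.1 in p42 and 64.5 in p30 cells in DMSO, and at 63.3 and 57.8 after tunicamycin.

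The search for the 6 motifs took in 100 bp on either side of every summit. A match to any CEBP form was found at 16 of the 187 regions (8.56%, 5.34 to 13.4) against 6.23% of all common regions. It was found at 6 of the 39 p42-high regions (15.4%, 7.25 to 29.7) and at 10 of the other 148 (6.76%, 3.71 to 12.0). Over all common regions the shares were 11.3% of p42-high and 5.19% of other regions, so the difference in the windows had the direction of that over the genome. Of these 6 regions 4 are printed above, and another lay 351878 bp from the CD36 start with 5 and 4 tags. AP-1 was found at 4 of the 39 p42-high regions (10.3%) and 17 of the others (11.5%), PU.1 at 3 (7.69%) and 18 (12.2%), and RUNX at 3 (7.69%) and 16 (10.8%). Over all common regions the shares of p42-high and other regions were 6.05 and 10.2% for AP-1, 7.59 and 6.71% for PU.1 and 7.59 and 9.63% for RUNX, so that for PU.1 the order was the opposite of that in the windows. PU.1 was found at 11.2% of the 187 regions (7.46 to 16.6) against 6.86% of all common regions, and at 7 of the 30 ITGAX regions. A match is a description of the sequence and does not show binding, and overlapping forms were counted once per motif.

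Set against EV cells in DMSO, p42 cells had a peak alone at 49 of the 187 regions (26.2%, background 27.6%) and EV cells at 20 (10.7%, background 8.74%). With the same number of peaks from each list these were 11.8 and 13.9%, again turning the direction, against 13.8 and 12.9% over all common regions. TLR4 had 7 regions in p42 cells only (43.8%, 23.1 to 66.8) and 0 in EV cells only. At regions with a peak in both, the median percentile was 8.35 points higher in p42 cells (3.80 to 14.2) against 6.0 over all common regions. The percentile was higher in p42 cells at 79.1% of these regions in the windows, against 66.9% over all common regions. At CD36 it was higher at 19 of 22 regions, by a median of 13.1 points. In DMSO the EV list was the shallowest and the p42 list the deepest, and percentiles are not scaled to depth. The p30 list stood nearer to EV. It had a peak alone at 20 regions (10.7%, background 14.6%) and EV cells at 15 (8.02%, background 8.91%), with a median difference of 1.08 points (−0.66 to 3.09) against 1.73 over all common regions. With the same number of peaks from each list the shares were 9.09 and 10.2%, which turned this direction too, against 10.8 and 10.4%. After tunicamycin, p42 cells had a peak alone at 29 regions (15.5%, background 17.5%) and p30 cells at 10 (5.35%, 2.93 to 9.56, background 10.1%). CD36 had 12 and 2 of these, where it had 10 and 9 in DMSO, and CD163 had none in either direction.

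Between DMSO and tunicamycin the windows of p42 and p30 cells differed about as often as the rest of the genome. In p42 cells 38 regions had a peak in DMSO only (20.3%, background 21.6%) and 17 after tunicamycin only (9.09%, background 9.07%). In p30 cells these were 28 (15.0%, background 15.2%) and 12 (6.42%, background 8.56%), and in EV cells 18 (9.63%, background 10.1%) and 11 (5.88%, 3.32 to 10.2, background 11.7%). For this last share the background lay above the interval, which covers counting error only and is no test. Of the p42 lists, the one in DMSO was deeper and longer, and with the same number of peaks from each list the p42 shares were 9.09 and 8.02%, against 11.4 and 8.74% over all common regions. At the regions with a peak in both p42 lists the percentile was 5.19 points lower after tunicamycin (median, interval −8.73 to −3.31 for the difference), against 2.94 points lower over all common regions. The medians were −1.22 points in p30 cells (−6.04 to 0.613) and −0.832 in EV cells (−2.82 to 3.69). These intervals again cover the spread over regions only and are no test. Over all common regions they were −1.80 and 0.754. Across the 3 lines, 23 regions (12.3%, background 8.86%) were lower after tunicamycin in every line and 9 (4.81%, background 4.35%) were higher in every line. The lower ones, by percentile, included 8 of the 42 regions at ITGAM and the promoters of TLR4 and CD163. In depth-scaled tags the TLR4 promoter was higher after tunicamycin in p42 (9.43 against 9.34) and p30 cells (8.67 against 7.54). It was lower on that scale in EV cells only (9.95 against 10.34).

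Promoters of other genes of these pathways were also compared, in lists drawn up by function. In DMSO a promoter region open in p42 but not p30 cells was present at 4 of 18 Toll-like receptors, co-receptors and adaptors (22.2%), 2 of 6 integrin genes and 5 of 14 scavenger and other monocyte receptors (35.7%), and the reverse at 3, 3 and 3. Among all protein-coding genes the shares were 24.5 and 15.3%, and among the 8 members 3 (LYZ, ITGAM and ITGAX) and 1 (ITGAM). These included TLR7 and TLR8, the endosomal RNA sensors, each with 1 weak peak in p42 cells in DMSO at 21.0 and 25.6 and none in another list. MYD88, the adaptor of TLR2 and TLR4, lay between 95.6 and 99.1 in all 6 lists. The promoter of FCN1, which encodes the monocyte lectin ficolin-1, lay at 87.5, 49.0 and 5.56 in p42, p30 and EV cells in DMSO and at 56.0 and 8.80 in p42 and p30 cells after tunicamycin, with no peak in EV cells. FCN1 was singled out after its values were seen.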

How the data were processed

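ATAC-seq was measured in 12 libraries of KO-52 cells (3 lines, 2 treatments, 2 replicates). The authors' pipeline comprised Trim Galore 0.6.6 for adapter trimming, Bowtie2 2.4.4 for alignment to hg38, Picard for duplicate removal and MACS2 for peaks, here those of pooled replicates. A correction of read ends for the transposase, which would move cut sites by a few bases, was not stated. The deposited lists give each peak's fold enrichment over local background and its −log10 p and −log10 q. Read counts per replicate, which the authors compared with DESeq2, were not analysed here.

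Peaks of the 6 lists on chromosomes 1 to 22, X and Y that overlapped or touched were merged into common regions. A region's percentile is the rank of its strongest −log10 q within a list. Whole summit tags were recovered from the deposited fold and −log10 p values, and matched for 100% of peaks within 0.01 log10 units. Depth was estimated from the lowest background, with a genome of 2700000000 bp. Genes and start sites came from GENCODE release 44. Python 3.11.15, pandas 2.3.3, scipy 1.17.1 and pysam 0.24.0 were used, and the recovery of tags and the merging of peaks were tested on simulated data.

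The genes, lists and comparisons were chosen with earlier results of these data known. For each gene, the text names its strongest promoter region, its strongest region outside promoters of other genes, the largest difference between p42 and p30 in DMSO in each direction, and the strongest region found in the p42 lists alone. The remaining named regions were p42-high or were chosen with their values known. With 1 pooled list per condition no test was run. A region and some marker genes that enter the counts are not reported here. The alternatives were another minimum −log10 q, equal list sizes, a depth-scaled minimum of tags, other overlaps, windows and ranks, and leaving out promoters of other genes.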

Additional observations from a re-analysis of the deposited data

Results flagged for a closer look

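The number of regions with a peak and the percentile of the strongest promoter peak were looked at for each of the 8 genes. The percentile of CD36 was left out for lack of peaks. For 8 of these values, 3 peak counts and 5 promoter percentiles, the change with tunicamycin went in opposite directions in p42 and p30 cells. The same share was not computed over other genes, so this count has no background. None of these differences was tested, since each condition is 1 pooled list. In the percentile of the strongest promoter peak, the change in p42 cells minus that in p30 cells was 10.6 points for CD14 (p42 3.93, p30 −6.72 and EV −8.29) and −17.0 points for TLR2 (−5.36, 11.6 and −5.23). It was 2.79 points for LYZ (1.18, −1.61 and −5.84), −2.91 for ITGAM (−2.23, 0.68 and −0.2) and −10.2 for ITGAX (−4.11, 6.12 and 2.47). In depth-scaled tags the LYZ promoter was higher after tunicamycin in both p42 (12.19 against 10.01) and p30 cells (10.83 against 10.18). So was that of ITGAX (13.36 against 12.68 and 17.76 against 13.95). The promoters of CD14, TLR2 and ITGAM kept opposite directions on that scale. In the number of regions with a peak, it was −3 for LYZ (−1, 2 and 0), 9 for CD36 (2, −7 and −4) and −4 for CD163 (−3, 1 and −1).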

How the results depend on the processing

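No paired analysis was possible because each list pools both replicates of its condition, and for the same reason no replicate could be left out. Of 135 alternative values for the comparisons, 107 stayed within the 95% interval of the reported value and 28 did not. With equal list sizes the order of the shares in 1 line only turned in all 3 comparisons in DMSO, with 13.9% for p30 and for EV cells against p42, and 9.09% for p30 against 10.2% for EV cells. Over all common regions none of the 3 turned. The 6 median differences in percentile kept their sign under the 3 alternatives tried for each. The shares of regions with a peak in 1 list only moved most, as percent of the 187 regions, and those over all common regions, in brackets, moved in the same direction. With a minimum −log10 q of 5, p42 against p30 in DMSO gave 15.0 and 6.42% (12.4 and 5.49), p42 against EV 14.4 and 3.74% (13.9 and 4.29), p30 against EV 5.35 and 3.21% (6.93 and 4.2), and p42 against p30 after tunicamycin 10.2% for p42 (9.14). At that minimum, peaks after tunicamycin only came to 3.74% in p42 and 1.6% in p30 cells (4.27 and 4.11), and peaks in DMSO only to 11.8, 8.02 and 4.28% in p42, p30 and EV cells (9.95, 7.01 and 4.61). With equal list sizes, p42-only regions came to 12.8% against p30 and 11.8% against EV, and those in p42 cells in DMSO only to 9.09% (13.4, 13.8 and 11.4). With a minimum of tags scaled to depth these 3 were 18.2, 19.3 and 15.0% (19.4, 21.3 and 16.0). When peaks had to cover 50% of a region, an alternative chosen after seeing the data, they were 32.6, 36.4 and 29.9% (30.1, 33.1 and 28.3). That cover also gave 18.7% for p30 against EV (18.1), 22.5 and 11.2% for p42 against p30 after tunicamycin (19.6 and 13.8), 24.1% for p30 cells in DMSO only (19.2), and 12.8 and 16.6% for EV cells after tunicamycin only and in DMSO only (14 and 13.2). The p42-high share was 15.5% (11.3) by summit tags per depth. The planned overlap of 50% either way changes no value by its construction, so its values could not leave their intervals. They are nevertheless counted among the 107 above and the 47 below. Of 48 values for TLR4, LYZ and CD163 alone, computed after the data were seen, 47 stayed within their wide intervals and CD163 in p42 cells only moved to 11.1% with equal list sizes. The causes were not tested. The median p42 summit that lacked a p30 peak held 8 tags, so the depth limits what presence can show.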
